A study of Mus musculus with 96 samples.

Results

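The proximal tubule reabsorbs most of what the glomerulus filters, and its opening and closing stretches were compared here in the mouse kidney. PTS1 is the beginning of the convoluted tubule, next to the glomerulus, and PTS3 is the end of the straight tubule, in the outer stripe of the outer medulla. Samples were taken into the comparison by their segment names, which gives 11 of the 93 microdissected samples of the series, 5 of PTS1 and 6 of PTS3, from 3 numbered mice per segment. These are 6 of the 53 combinations of segment and mouse number, and the labels do not say whether a number used in several segments is the same animal. All mice were untreated male C57BL/6 of 6 to 8 weeks on normal chow with free water, no transgene or deletion was named, and no female was studied. The study measured polyadenylated RNA in hand-dissected pieces of 14 tubule segments and of the glomerulus, to chart where along the nephron each gene is expressed. A piece was chosen by its position and shape and was not sorted by cell type, and pieces of the same mouse were averaged, so the mouse was the replicate. PTS2, the cortical part of the straight tubule (8 pieces), lies between the ends and is given where it shows at which step a level changed. The name of 1 PTS2 piece matched no sample title, so that piece was placed by its segment alone and counted as 1 of the 5 PTS2 mice.

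By textbook account, cells at the start of the proximal tubule carry tall brush borders and many mitochondria and take up most of the filtered glucose, phosphate, amino acids, bicarbonate and protein. Cells of the last part recover what is left, often with transporters of higher affinity, secrete organic anions and carry much of the xenobiotic and steroid metabolism. The last part is also the stretch that ischaemia and many nephrotoxins injure most.

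Levels are the authors' TPM, a measure of transcript abundance that is corrected for transcript length and library size. TPM hold no read numbers, so the depth behind a value is unknown and counting error could not be given. Differences are log2(TPM + 1) in PTS1 minus PTS3, with the standard error (SE) and the adjusted p of limma over all genes tested. Both rest on the spread of a gene within all 15 groups, so they do not measure the spread of the PTS1 and PTS3 mice alone. A gene was called where the adjusted p was under 0.05 and the difference was at least 1 log2 unit. Levels are means ± SD of TPM over 3 mice unless the values of the mice are listed, which are in the order of the mouse numbers. In whole pieces of tubule, fewer cells of a type and less RNA per cell cannot be told apart.

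Over the genes tested, which do not count as replicates, log2(TPM + 1) correlated (Pearson's r) at 0.970 to 0.982 between PTS1 pieces and 0.969 to 0.982 between PTS3 pieces. Between a PTS1 and a PTS3 piece r was 0.888 to 0.913 (30 pairs). PTS1 pieces listed 12624 to 14099 genes at 1 TPM or more and PTS3 pieces 11291 to 11788. Odorant and vomeronasal receptor genes, which kidney tubules are not known for, numbered 6 to 48 at that level in PTS1 pieces and 1 to 5 in PTS3 pieces, and the part of such low signal in the low PTS1 calls was not tested. The second piece (b) of PTS1 mouse 1 stood apart. For the 15 genes with the largest excess in PTS3, its median level was 0.468% of the PTS3 mean and its highest 3.58%, against medians of 0.00524% to 0.0197% in the other PTS1 pieces.

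Of 33793 genes tested, 3417 were called, which is 10.1%. Of these, 2075 genes (6.14%) were higher in PTS1 and 1342 (3.97%) in PTS3. The 3 mice of a segment did not overlap with the 3 of the other for 2048 and 1335 of them. That adds no support, since the calls came from the same mice, and the share without overlap over all genes tested is not given. Among the 7317 genes with a mean of at least 10 TPM in either segment, 1992 were called, 27.2%, of which 1057 (14.4%) were higher in PTS1 and 935 (12.8%) in PTS3. Counts within the gene lists below are to be read beside these shares. The median difference was 0.18 over all genes tested and 0.05 over the 7317. Quantile normalization moved the median over all genes from 0.18 to -0.01, and the share of calls that were higher in PTS1 from 60.7% to 48.6%. With 0.1 in place of the 1 added to TPM, that share was 82.3% and the median 0.75. With 5 they were 52.3% and 0.04. Among all genes tested, 117 called genes were over 5 log2 units higher in PTS1 and 69 in PTS3. Among genes of at least 10 TPM, 190 that were higher in PTS1 averaged under 1 TPM in PTS3, and 115 that were higher in PTS3 averaged under 1 TPM in PTS1.

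**Figure D1:**
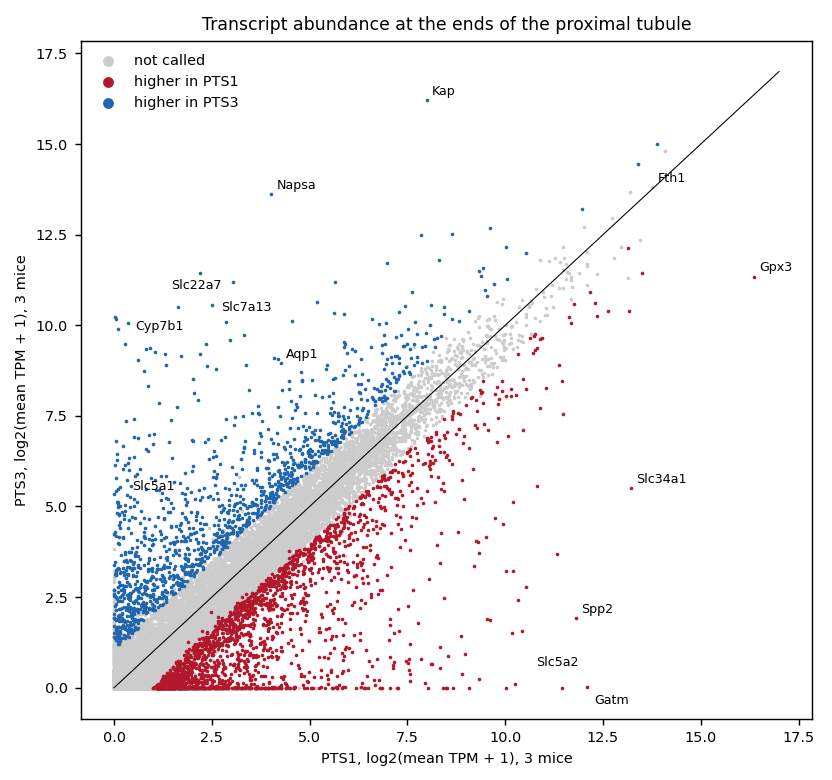
Each point is a gene tested, with its log2(mean TPM + 1) over the 3 PTS1 mice on the x axis and over the 3 PTS3 mice on the y axis. Genes called higher in PTS1 are red, genes called higher in PTS3 are blue and the line marks equal levels; Gatm and Slc5a2 lie along the x axis, Kap and Napsa stand far above the line, and Fth1 lies on it.

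Genes that mark the segments in other work fell where the labels put them. Slc5a2 (ENSMUSG00000030781), the high-capacity sodium-glucose cotransporter that is the target of the gliflozin drugs, was at 2761, 2473 and 3141 TPM in PTS1 and was listed at 0 in all 3 PTS3 mice. Gatm (ENSMUSG00000027199), the enzyme that starts creatine synthesis from arginine and glycine, was at 4558, 3757 and 4719.7 TPM in PTS1 and at 0, 0 and 0.015 TPM in PTS3. The groups were wholly apart in both genes, with differences of 11.44 (SE 0.54, limma adjusted p = 6.55e-22) and 12.07 (SE 0.53, adjusted p = 4.5e-23). Kap (ENSMUSG00000032758), an abundant androgen-regulated kidney protein, was at 63323, 83372 and 79431 TPM in PTS3. In PTS1 it was at 742, 15.2 and 3.95 TPM, so that mouse 1 stood far above the other two and all 3 lay far below PTS3. The difference was -11.92 (SE 1.02, adjusted p = 3.72e-13), -13.21 without the piece of mouse 1 that stood apart, and -10.95 without PTS1 mouse 3. All 4 genes listed as early proximal markers (Slc5a2, Slc34a3, Slc6a19 and Slc5a12) were higher in PTS1, and all 6 late proximal markers (Slc7a13, Slc5a1, Slc22a7, Slc22a13, Atp11a and Slc15a2) were higher in PTS3.

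After Gatm and Slc5a2, the largest differences in favour of PTS1 included secreted proteins, surface enzymes, transporters and mitochondrial enzymes. Spp2, a secreted phosphoprotein, was at 3789, 3270.5 and 3724 TPM in PTS1 and at 0.385, 2.59 and 5.4 TPM in PTS3 (difference 10.20, SE 0.51, adjusted p = 5.76e-21, and 9.61 without PTS3 mouse 1). Alpl, the tissue-nonspecific alkaline phosphatase of the brush border, was at 989, 1028 and 1082 TPM and listed at 0 in every PTS3 mouse (10.01, SE 0.53, adjusted p = 2.78e-20). In neither of these did a mouse of PTS3 come near the PTS1 range. Acaa2, the thiolase that closes each round of mitochondrial fatty acid oxidation, differed by 9.19, and Acss1, which activates acetate in mitochondria, by 9.13. Others among the largest were Fam151a (9.07), the glucuronosyltransferase Ugt2b38 (8.70), the membrane-bound carbonic anhydrase Car14 (8.66), the phosphate transporter Slc34a3 (8.50), the hydroxyproline dehydrogenase Prodh2 (8.47), the lactate transporter Slc5a12 (8.39), the dipeptidase Dpep1 (8.25) and the growth factor binding protein Igfbp4 (8.21, and 7.46 without PTS3 mouse 3). Fam151a, Car14, Slc34a3, Prodh2 and Slc5a12 were listed at 0 in all PTS3 mice.

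The 15 largest in favour of PTS3 included, after Kap, secreted serpins, steroid enzymes and anion transporters. Serpina1f and Serpina1d, of the alpha-1-antitrypsin family, averaged 1190.0 ± 63 and 1155 ± 274 TPM in PTS3, and no PTS1 mouse exceeded 0.035 and 0.085 TPM (differences -10.19 and -10.08, SE 0.37 in both, adjusted p = 6.33e-26 and 9.72e-26). Serpina1d has near-identical copies in the family, so the split of reads among those is uncertain. Napsa, the aspartic protease napsin A, was at 14108, 11255 and 12323 TPM in PTS3 and at 27.8, 11.9 and 6 TPM in PTS1 (-10.03, SE 0.48, adjusted p = 1.41e-21). Acsm3, a medium-chain acyl-CoA synthetase, was at 2747, 1972 and 2256 TPM against 21.1, 0.305 and 0.25 TPM (-9.99, and -10.84 without the piece that stood apart). Slc22a7, an organic anion transporter, and Slc7a13, an aspartate and glutamate transporter, differed by -9.82 and -9.57, or -10.45 and -10.30 without that piece. Akr1c18, which inactivates progesterone, differed by -9.79, Cyp7b1, which hydroxylates oxysterols, by -9.68, and Hsd11b1, which regenerates active glucocorticoid, by -9.48. Bcat1, the cytosolic branched-chain aminotransferase, differed by -9.16, the protease subunit Mep1b by -8.70, the anion transporter Slc22a19 by -8.56, the steroid hydroxylase Cyp2a4 by -8.40 (-9.11 without the piece) and Akr1c14 by -8.24. Cyp2a4 and the Akr1c genes also have close copies.

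**Figure D2:**
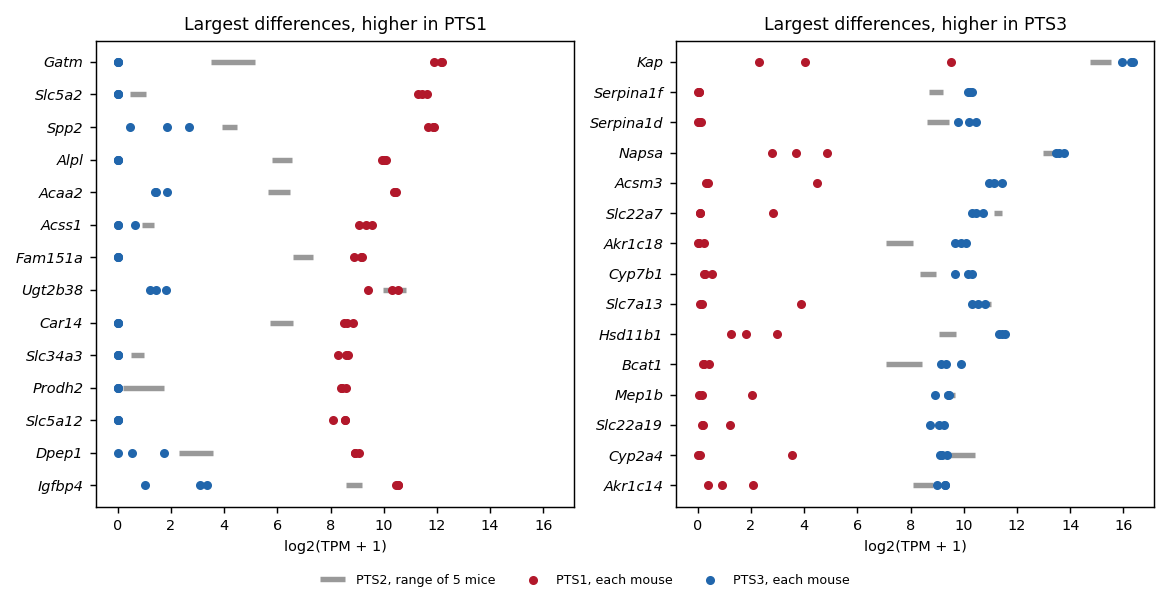
Called genes with the largest log2 differences in each direction, with log2(TPM + 1) on the x axis; red and blue points are the 3 PTS1 and 3 PTS3 mice and the grey bar is the range of the 5 PTS2 mice. PTS1 and PTS3 mice are apart in every gene, PTS2 lies near PTS3 for Slc34a3 and Slc5a12 and near PTS1 for Ugt2b38, and PTS1 mouse 1 is the high red point in Kap and Acsm3.

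By level, the largest gaps were carried by few genes. Gpx3, the selenium-dependent glutathione peroxidase that proximal cells secrete into plasma, was at 77474, 74429 and 100598 TPM in PTS1 and at 2434, 2519.5 and 2827 TPM in PTS3 (5.02, SE 0.61, adjusted p = 7.92e-09). It was the most abundant transcript named here in PTS1, as Kap was in PTS3. After it came the phosphate transporter Slc34a1, the ferritin light chain Ftl1 (11618 ± 1126 against 2806 ± 245 TPM), Miox, which opens the ring of myo-inositol (9146 ± 1102 against 1339 ± 87 TPM), and Gpx1 (6343 ± 366 against 1336 ± 55.3 TPM). On the side of PTS3, Kap was followed by the mitochondrial transcript mt-Nd1 (33049 ± 5834 against 15149.9 ± 3633 TPM), Napsa, the nuclear RNA Malat1 (22264 ± 4926 against 10782 ± 1776 TPM) and Slc27a2, which activates long fatty acids (6573 ± 1238 against 777 ± 87.9 TPM). The differences of mt-Nd1 (-1.14) and Malat1 (-1.03) lay near the limit of 1. They were not called after quantile normalization (-0.60 and -0.48), without PTS1 mouse 3 (-0.94 and -0.89) or without PTS3 mouse 2 (-1.0 and -0.87), and Malat1 also not without the PTS1 piece that stood apart (-1.0).

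The promoters of the called genes were searched for 2 short patterns, on both strands of the 300 bases from 250 before to 50 after each RefSeq start (GRCm38.p6), to show sequence beside the values. The letters CAAAGTCC, of the HNF4 type, were in a promoter of 16 of 813 genes higher in PTS1 (1.97%) and of 23 of 695 genes higher in PTS3 (3.31%). They were in a promoter of 74 of 4244 genes of at least 10 TPM that were not called (1.74%) and of 440 of all 27025 genes with a promoter (1.63%). A gene with several starts was counted once if any of them matched, so a share also depends on the starts per gene. The E-box CACGTG was in 16.2%, 9.64%, 13.5% and 8.09% of the same sets. Median GC content was 59.0%, 59.3%, 60.7% and 52.7%. The patterns were picked after the values were seen, a match is no measured site, and no test was made. The windows below show 12 bases on each side of CAAAGTCC or its reverse complement, in capitals, read 5′ to 3′ on the gene's strand. They are shown for 3 genes higher in PTS1 and 3 higher in PTS3 with large differences, among them the close copies Cyp2a5 and Cyp2a4, which went opposite ways.
Cyp2a5 (chr7:26835271-26835302, plus strand): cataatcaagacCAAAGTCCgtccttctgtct
Slc51a (chr16:32487938-32487969, minus strand): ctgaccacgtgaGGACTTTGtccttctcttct
Agxt2 (chr15:10358500-10358531, plus strand): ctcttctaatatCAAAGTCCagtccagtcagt
Cyp2a4 (chr7:26307125-26307156, plus strand): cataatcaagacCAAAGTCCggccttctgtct
Nudt19 (chr7:35556102-35556133, minus strand): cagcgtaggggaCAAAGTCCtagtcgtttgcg
Ace (chr11:105967832-105967863, plus strand): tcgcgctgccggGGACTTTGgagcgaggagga

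The Cyp2a5 and Cyp2a4 patterns lay 56 and 55 bases before their starts, in genes that differed by 5.09 and -8.40. Slc51a, a subunit of the basolateral bile acid and steroid carrier, was at 43.5 ± 6.54 TPM in PTS1 and 0.752 ± 0.598 TPM in PTS3 (4.79, adjusted p = 1.31e-18). Agxt2, a mitochondrial aminotransferase, was at 103 ± 3.98 and 11.2 ± 2 TPM (3.21, adjusted p = 2.13e-11). Nudt19 and Ace, described with the peroxisome and the brush border, differed by -4.76 and -4.65.

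Different sugar carriers were high at each end. Slc5a1, the sodium-glucose cotransporter of higher affinity, was at 47, 29.3 and 39.2 TPM in PTS3 and at 0.66, 0.07 and 0.05 TPM in PTS1, the reverse of Slc5a2, with a difference of -5.0 (SE 0.34, adjusted p = 1.69e-16). Slc5a10, a fructose and mannose cotransporter, averaged 125 ± 35.9 TPM in PTS3 and 0.872 ± 1.34 TPM in PTS1 (-6.41, adjusted p = 7.96e-21). Slc2a2, the basolateral facilitative glucose carrier, was higher in PTS1, at 369, 249 and 339 against 9.7, 10.7 and 8.89 TPM (4.95, SE 0.34, adjusted p = 3.81e-16). Slc2a1, its relative of higher affinity, was at 8.76 ± 1.51 and 7.22 ± 0.806 TPM and was not called (0.24, adjusted p = 0.66). Of 11 sugar carriers tested, 3 were higher in PTS1 and 2 in PTS3, with a median of 0.24, and the split was 3 and 3 under each rescaling tried. In PTS2, Slc5a2 was at 0.688 TPM and Slc5a1 at 93 TPM.

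The phosphate cotransporters Slc34a1 and Slc34a3 were higher in PTS1. Slc34a1, the main sodium-phosphate cotransporter of the brush border, was at 9764, 9164 and 9579 TPM in PTS1 and at 54.3, 41.6 and 36.7 TPM in PTS3 (7.80, SE 0.77, adjusted p = 2.64e-11). Slc34a3 was at 385, 307 and 398 TPM and listed at 0 in PTS3. PTS2 parted them, with 5659 TPM of Slc34a1 and 0.648 TPM of Slc34a3. Pdzk1, which anchors Slc34a1 at the membrane, was at 1557 ± 89.3 and 1456 ± 159 TPM (0.10, adjusted p = 0.969). Its partner Slc9a3r1 was at 218 ± 14.6 and 335 ± 35.4 TPM (-0.62, adjusted p = 0.00837), short of the 1 log2 unit. These 2 cotransporters were the only called genes of 10 in the list, whose median was -0.23. Under each rescaling tried, 1 gene of the list was called higher in PTS3.

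Of 12 genes that set phosphate and vitamin D, 6 were higher in PTS1 and 0 in PTS3, with a median of 1.09. Cyp27b1, which makes active vitamin D, was at 78.4, 58.2 and 80.7 TPM in PTS1 and listed at 0 in PTS3 (6.18, SE 0.38, adjusted p = 9.18e-18). Cyp24a1, which degrades it, was at 174, 28.2 and 45.1 TPM in PTS1, a spread led by mouse 1, and also listed at 0 in PTS3 (5.94, SE 0.47, adjusted p = 2.45e-14, and 5.19 without mouse 1). Both were low in PTS2, at 0.438 and 2.28 TPM, so most of the step lay between the convoluted and the straight tubule. Kl, the coreceptor for the phosphate hormone FGF23, was at 149.6, 126 and 129.8 against 6.6, 9.53 and 10.9 TPM (3.80, SE 0.36, adjusted p = 7e-12). Kl was at 193 TPM in PTS2. Among the receptors, Pth1r was at 355 ± 66.7 and 544 ± 71.5 TPM (-0.62, adjusted p = 0.246) and Vdr at 62.9 ± 11.6 and 71.9 ± 7.04 TPM (-0.21, adjusted p = 0.805).

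Amino acid transporters split into early and late sets, 10 of 26 higher in PTS1 and 8 in PTS3 (median 0.31). Slc6a19, the main neutral amino acid transporter of the brush border, was at 1327, 901 and 1283 TPM in PTS1 and at 14.1, 5.98 and 4.92 TPM in PTS3 (7.12, SE 0.44, adjusted p = 7.14e-18). Its relative Slc6a18 did the opposite, at 11.1, 5.32 and 4.08 against 903, 618 and 783 TPM (-6.82, SE 0.32, adjusted p = 7.15e-22). Cltrn, the collectrin that brings both to the surface, was high at both ends, at 5058 ± 355 and 1555 ± 147 TPM (1.70, adjusted p = 0.002). The basolateral exporters stood with Slc6a19. Slc7a8 averaged 373 ± 93.7 against 0.833 ± 0.434 TPM (7.70), Slc7a7 647 ± 20.5 against 12.1 ± 1.95 TPM (5.66) and their shared heavy chain Slc3a2 984 ± 151 against 21.8 ± 7.25 TPM (5.49). Slc43a2, another exporter, differed by 6.52.

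Cystine and acidic amino acid carriers also had an early and a late light chain. Slc7a9, the light chain of the cystine and basic amino acid carrier, was at 513, 434 and 540.3 TPM in PTS1 and at 41.9, 33 and 33.2 TPM in PTS3 (3.77, SE 0.31, adjusted p = 7.48e-14). Slc7a13, the light chain known from the late tubule, was at 1763, 1277 and 1466 TPM in PTS3 and at 13.8, 0.125 and 0.05 TPM in PTS1. Their shared heavy chain Slc3a1 was at 309.6, 289 and 283 TPM in PTS1 and 804, 531 and 702 TPM in PTS3, without overlap. Its difference of -1.18 (SE 0.36, adjusted p = 0.0139) was not called without PTS3 mouse 1 (-1.04, adjusted p = 0.0757) or where pieces were averaged before the log (adjusted p = 0.0702). Other late carriers were the glutamine transporter Slc38a3 (64.9 ± 4.17 against 0.593 ± 0.298 TPM, -5.39), the betaine and GABA transporter Slc6a13 (364 ± 41.2 against 47.4 ± 5.32 TPM, -2.92) and the peptide transporter Slc15a2 (398 ± 23.7 against 56.4 ± 14.2 TPM, -2.82). The acidic amino acid transporter Slc1a1 was at 126 ± 15 and 141 ± 14 TPM and was not called (-0.16, adjusted p = 0.849).

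**Figure D3:**
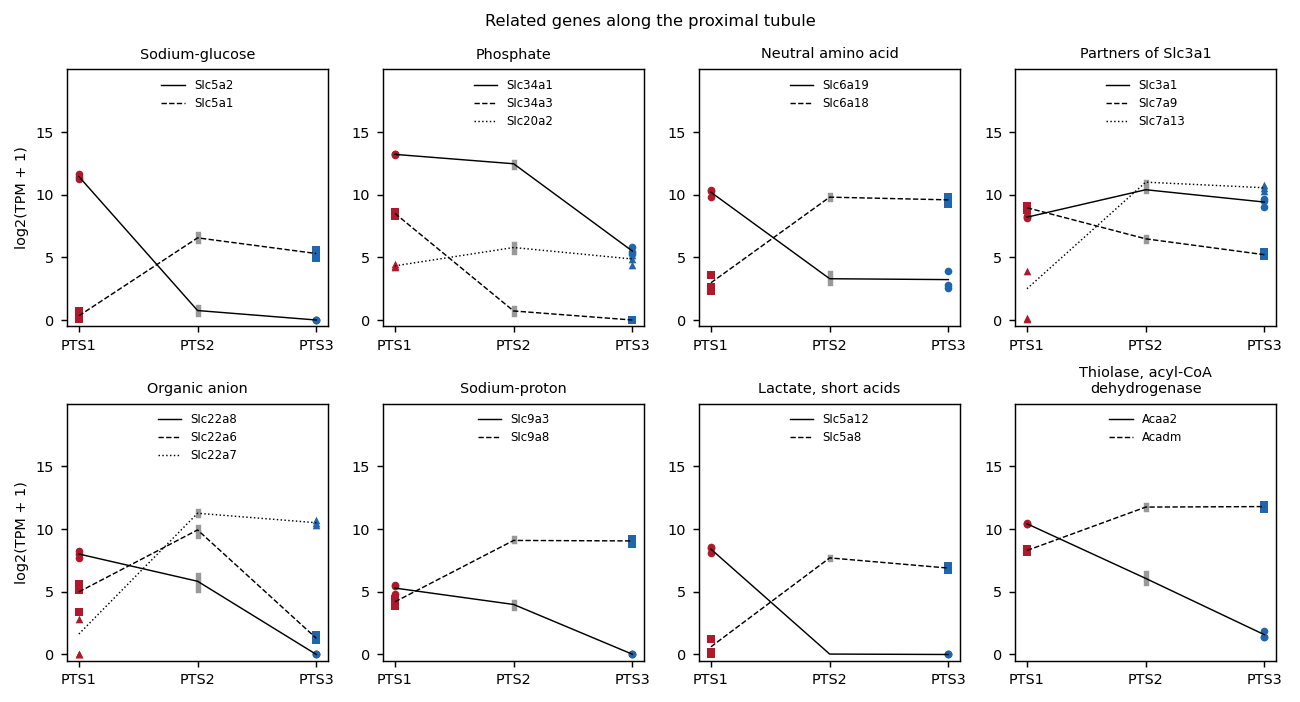
Related genes along the 3 proximal segments, with log2(TPM + 1) on the y axis; red and blue symbols are PTS1 and PTS3 mice, the grey bars the range of the 5 PTS2 mice, and the lines join log2(mean TPM + 1). The lines of Slc5a2 and Slc5a1, of Slc6a19 and Slc6a18, of Slc9a3 and Slc9a8, of Slc5a12 and Slc5a8 and of Acaa2 and Acadm cross between PTS1 and PTS2.

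Organic anion and urate carriers leaned to PTS3, with 10 of 25 higher there and 5 in PTS1 (median -0.44). Slc22a8, a basolateral organic anion exchanger, was among the 5, at 205, 311 and 257 TPM in PTS1 and 0, 0 and 0.005 TPM in PTS3 (7.99, SE 0.36, adjusted p = 8.75e-23). Its close relative Slc22a6 was at 35.1, 48.3 and 9.42 against 1.27, 1.91 and 1.18 TPM (3.50, SE 0.45, adjusted p = 2.84e-08, and 4.16 without PTS1 mouse 3), yet its highest level was in PTS2, at 981 TPM. Slc22a7 was at 1687, 1282 and 1409.9 TPM in PTS3 and at 6.19, 0.05 and 0.05 TPM in PTS1. Slc22a13 averaged 424 ± 38.9 against 0.705 ± 0.562 TPM (-8.03), and the urate exchanger Slc22a12 was at 697 ± 31 against 114 ± 58.4 TPM (-2.79, adjusted p = 3.32e-06). The Slco carriers Slco3a1 (-4.92, and -4.22 without PTS1 mouse 3), Slco4c1 (-4.88) and Slco1a1 (-4.42, and -5.06 without the piece that stood apart) were also higher in PTS3. Abcg2, an efflux pump for urate and drugs, was at 652 ± 81.7 and 265 ± 33.7 TPM, and its mice did not overlap. It was not called (1.3, SE 0.57, adjusted p = 0.13), where the SE takes in its spread in all 15 groups. Abcc2 was not called either, at 58.8 ± 13.6 and 79.7 ± 10.1 TPM. Of 9 carriers for organic cations and carnitine, 1 was called in each direction. Slc22a5, which takes up carnitine, was higher in PTS1 (209 ± 37.5 against 24.5 ± 1.99 TPM, 3.03), and Slc22a2 in PTS3 (374 ± 42.3 against 49.6 ± 19 TPM, -2.95).

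Carrier genes for lactate and other small acids also differed in level between the ends. Slc5a12, the lactate cotransporter of low affinity, was at 372, 274 and 369 TPM in PTS1 and listed at 0 in PTS3. Slc5a8, its relative of higher affinity, was at 136, 106 and 113 TPM in PTS3 and at 1.42, 0.135 and 0.04 TPM in PTS1 (-6.47, SE 0.31, adjusted p = 7.48e-22). Both changed between PTS1 and PTS2, where they stood at 0.024 and 208 TPM. The proton-coupled exporter Slc16a1 (5.34) and the sulfate carriers Slc26a1 (183 ± 29.3 against 3.75 ± 0.668 TPM, 5.49) and Slc13a1 (228 ± 23.3 against 36.3 ± 5.6 TPM, 2.65) were higher in PTS1. The citrate cotransporter Slc13a2 was higher in PTS3 (89.7 ± 5.21 against 12.6 ± 9.72 TPM, -2.96). In all, 7 of 15 carriers of sulfate, dicarboxylates and monocarboxylates were higher in PTS1 and 3 in PTS3 (median 0.54).

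Of 25 genes of sodium, acid-base and water transport, 10 were higher in PTS1, 3 in PTS3 and 12 were not called (median 0.57). Car14 was at 464, 391 and 365 TPM in PTS1 and listed at 0 in PTS3 (8.66, SE 0.42, adjusted p = 2.11e-21). The cytosolic carbonic anhydrase Car2 was at 1409.9, 1255 and 1174 against 3.91, 5 and 4.12 TPM (7.94, SE 0.18, adjusted p = 4.89e-33). Slc4a4, which moves sodium and bicarbonate out of the cell base, was at 666, 494 and 611 against 10.2, 7.48 and 9.93 TPM (5.88, SE 0.45, adjusted p = 7.83e-15). Car12 (246 ± 22.7 against 0.0917 ± 0.125 TPM) and Car4 (108 ± 44.3 against 0.162 ± 0.28 TPM) followed, and Car4 was highest in PTS2 at 471 TPM. The apical sodium-proton exchanger Slc9a3 was at 45.3, 26.8 and 43 TPM in PTS1 and at 0, 0.045 and 0 TPM in PTS3 (5.23, SE 0.33, adjusted p = 2.29e-17). Its relative Slc9a8 was at 21.1, 14 and 17.1 TPM in PTS1 and at 591, 439 and 569 TPM in PTS3 (-4.86, SE 0.33, adjusted p = 2.25e-16).

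Water channels differed by member. Aqp1, the water channel of the proximal tubule and thin descending limb, was at 16, 30.8 and 7.94 TPM in PTS1 and at 582, 389.8 and 514 TPM in PTS3 (-4.85, SE 0.51, adjusted p = 1.47e-10). The basolateral channels parted, with Aqp3 at 51.1, 56.5 and 44.6 TPM in PTS1 and listed at 0 in PTS3 (5.69). Aqp4 was at 0.105, 0.135 and 0.04 TPM in PTS1 and at 36.7, 25.8 and 17.5 TPM in PTS3 (-4.57). Both are among the 8 collecting duct genes, which summed to 47.3 to 59 TPM in PTS1 pieces and 17.9 to 51.2 TPM in PTS3 pieces, Aqp3 and Aqp4 included. The defining channel of that list, Aqp2, averaged 0.697 and 0 TPM, and the part of collecting duct cells was not tested. The junction gene Cldn2, which lets sodium and water pass between proximal cells, was at 254 TPM at both ends (0.02, adjusted p = 1), whereas Cldn3 was at 112 TPM in PTS3 and 0.0367 TPM in PTS1 (-6.76, adjusted p = 6.91e-22).

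Genes of protein uptake differed by moderate steps, with 9 of 20 genes of megalin and cubilin endocytosis higher in PTS1 and 0 in PTS3 (median 0.93). The other 11 did not reach the call, and the count fell to 6 after quantile normalization. Lrp2, which encodes the receptor megalin, was at 109, 99.2 and 114 TPM in PTS1 and at 32.3, 32.3 and 38.1 TPM in PTS3 (1.62, SE 0.27, adjusted p = 4.81e-06). Its adaptor Dab2 averaged 429 ± 40.8 against 126 ± 18.4 TPM (1.77, adjusted p = 1.28e-05). The lysosomal proteases Lgmn (748 ± 94.9 against 138 ± 32.1 TPM, 2.45) and Ctsb (1234 ± 167 against 267 ± 32.3 TPM, 2.21) changed most. Amn, the anchor of cubilin, was at 285 ± 31.6 and 151 ± 18.7 TPM (0.91), under the limit.

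Brush border enzymes divided, 7 of 21 higher in PTS1 and 6 in PTS3 (median 0.22), and 5 and 6 after quantile normalization. Beside Alpl, Dpep1, which cleaves dipeptides and leukotrienes, was at 487, 542 and 477 against 0.445, 2.3 and 0 TPM (8.25, SE 0.54, adjusted p = 5.31e-17). Enpep, the aminopeptidase that trims angiotensin II, averaged 55.7 ± 5.89 against 0.942 ± 0.49 TPM (5.01). On the other side, the meprin subunits Mep1b and Mep1a were higher in PTS3, Mep1a at 1486, 1105 and 1282 against 60.7, 34.2 and 50.4 TPM (-4.73, SE 0.53, adjusted p = 1.05e-09). Ggt1, which starts the breakdown of glutathione, was at 1467 ± 218 against 172 ± 74.8 TPM (-3.17), and highest in PTS2 at 3916 TPM. Ace, the angiotensin-converting enzyme, was at 45.7, 24.3 and 37.1 TPM in PTS3 and at 0.67, 0.28 and 0.33 TPM in PTS1 (-4.65, SE 0.31, adjusted p = 1.56e-16). Structural genes of the microvillus were mixed. Vil1 (90.6 ± 4.62 and 77.5 ± 3.5 TPM) and Ush1c (91 ± 4.41 and 87.2 ± 5.83 TPM) were not called. The motor gene Myo7b (12.8 ± 1.72 against 4.46 ± 0.821 TPM, 1.46) and Ezr, which links membrane to actin (257 ± 26.6 against 117 ± 13.9 TPM, 1.13), were higher in PTS1, Myo7b not with a pseudocount of 5 (0.94) and Ezr not after quantile normalization (0.98).

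Genes of glucose production leaned to PTS1, with 9 of 17 genes of gluconeogenesis and ammonia production higher there and 1 in PTS3 (median 1.26). G6pc, the phosphatase that releases free glucose, was at 696, 864 and 629 TPM in PTS1 and at 13.8, 14.8 and 21.4 TPM in PTS3 (5.39, SE 0.48, adjusted p = 1.3e-12). Pcx, which makes oxaloacetate, averaged 294 ± 29.5 against 77.5 ± 6.36 TPM (1.90), and Got1 151 ± 12.2 against 21.9 ± 2.41 TPM (2.74). Pck1, the next enzyme of the path, was at 1173, 2183 and 1077 TPM in PTS1 and at 1802, 1122 and 661 TPM in PTS3, and the mice overlapped (0.34, SE 0.55, adjusted p = 0.801). Fbp1 was at 4378 ± 586 and 2215 ± 251 TPM (0.98, adjusted p = 0.364).

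Glycolysis genes went both ways, 7 of 26 higher in PTS1 and 5 in PTS3 (median 0.53), and 5 and 6 after quantile normalization. Ldhb, the lactate dehydrogenase subunit of oxidative tissues, was at 2877, 2745 and 2815 TPM in PTS1 and at 358, 336 and 356 TPM in PTS3 (3.01, SE 0.18, adjusted p = 6.56e-18). Pkm, a pyruvate kinase, was at 61.2, 39.5 and 49.4 TPM in PTS3 and at 1.91, 2.16 and 1.63 TPM in PTS1 (-4.13, SE 0.20, adjusted p = 1.27e-21). Ldhd, which oxidises D-lactate, was also higher in PTS3 (1079 ± 52.5 against 205 ± 51.7 TPM, -2.43), as was Khk, which phosphorylates fructose (1335 ± 62.3 against 534 ± 21.4 TPM, -1.32).

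Fatty acid oxidation genes were divided by enzyme, 8 of 29 higher in PTS1 and 6 in PTS3 (median 0.09). Acaa2 was at 1381, 1337 and 1420.0 TPM in PTS1 and at 1.68, 2.6 and 1.66 TPM in PTS3 (9.19, SE 0.24, adjusted p = 2.03e-31). The acyl-CoA dehydrogenase for medium chains, Acadm, was at 340.2, 310.5 and 290.1 TPM in PTS1 and at 3761, 3077 and 3869 TPM in PTS3 (-3.50, SE 0.19, adjusted p = 6.88e-20). Acadl, for long chains, followed Acadm (570.4 ± 52.9 against 149 ± 17.4 TPM, -1.93). Lipid handling proteins were split too, with Acsl1 (133 ± 14 against 2.7 ± 1.19 TPM, 5.33) and Fabp3 (604 ± 91 against 15.6 ± 4.56 TPM, 5.26) higher in PTS1. The fatty acid receptor Cd36 (439.7 ± 70.4 against 5.06 ± 6.93 TPM, -7.01, and between -7.79 and -6.42 without PTS1 mouse 1 or 3) and Bdh1, a ketone body dehydrogenase (319 ± 25.4 against 0.815 ± 0.52 TPM, -7.57), were higher in PTS3. Cpt2, Hadh and Oxct1 were among the 15 not called.

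The list of peroxisome genes, which also holds the mitochondrial Agxt2, had 5 of 27 higher in PTS1, Agxt2 among them, and 5 in PTS3 (median -0.47). Nudt19, a coenzyme A hydrolase, was at 3829, 3248 and 3117 TPM in PTS3 and at 140.1, 122 and 113 TPM in PTS1 (-4.76, SE 0.17, adjusted p = 1.45e-26). Acox2 (294 ± 28.6 against 9.9 ± 2.95 TPM, -4.80), Crot (1162 ± 182 against 94.9 ± 11.9 TPM, -3.60) and Ehhadh (673 ± 80.4 against 94 ± 15.2 TPM, -2.84), all of the peroxisomal oxidation of fatty and bile acids, went with it. On the side of PTS1 stood Idh1, which yields NADPH, at 1204, 1201 and 1113 against 35.4, 27.4 and 39.3 TPM (5.09, SE 0.20, adjusted p = 8.98e-25). Catalase (Cat) was at 471 ± 0.43 and 668 ± 99.2 TPM and was not called (-0.49, adjusted p = 0.0633).

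Glutathione genes were divided by step. The peroxidases Gpx3 and Gpx1 were the 2 of 17 genes higher in PTS1, while 7 were higher in PTS3 (median -0.66). Gclc, the catalytic subunit that limits synthesis, was at 489, 477 and 369 TPM in PTS3 and at 42.7, 39.2 and 43 TPM in PTS1 (-3.38, SE 0.30, adjusted p = 7.52e-13). Its modifier Gclm (949 ± 42.1 against 183 ± 11.7 TPM, -2.37) and the synthetase Gss (1519 ± 119 against 274 ± 16.4 TPM, -2.46) were higher in PTS3. So were genes of its turnover, Ggt1, Ggct (-3.05) and Oplah (-1.65), and the quinone reductase Nqo1 (-2.37). Cth and Cbs, which make the cysteine that goes into glutathione, were at 391 ± 24.1 against 70.2 ± 6.62 TPM (-2.46) and 368 ± 43.5 against 122 ± 26 TPM (-1.60). The peroxidase Gpx4 was at 883 ± 67.5 and 1610.4 ± 151 TPM (-0.86), under the limit.

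Amino acid breakdown genes went both ways, 11 of 32 higher in PTS1 and 9 in PTS3 (median 0.31). Prodh2 was at 331, 347 and 386 TPM in PTS1 and listed at 0 in PTS3. Gldc, the decarboxylase of the glycine cleavage system, was at 156, 186 and 117 TPM in PTS1 and also listed at 0 (7.23, SE 0.26, adjusted p = 2.51e-26). The arginine path favoured PTS1 through Asl (573 ± 72.9 against 65.1 ± 4.92 TPM, 3.12) and Ass1 (399 ± 18.1 against 71.5 ± 9.73 TPM, 2.47), which feed the arginine that Gatm uses. Acmsd, which steers tryptophan away from NAD synthesis, averaged 218 ± 24.4 against 2.42 ± 0.991 TPM (6.20). Dmgdh, which breaks down dimethylglycine, was higher in PTS3 and differed by -4.85. Of 6 creatine genes, 3 were higher in PTS1, and Gamt, which completes the synthesis Gatm starts, was higher in PTS3 at 81.6 ± 10.1 against 31.6 ± 5.17 TPM (-1.34, SE 0.31, adjusted p = 0.00105).

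**Figure D4:**
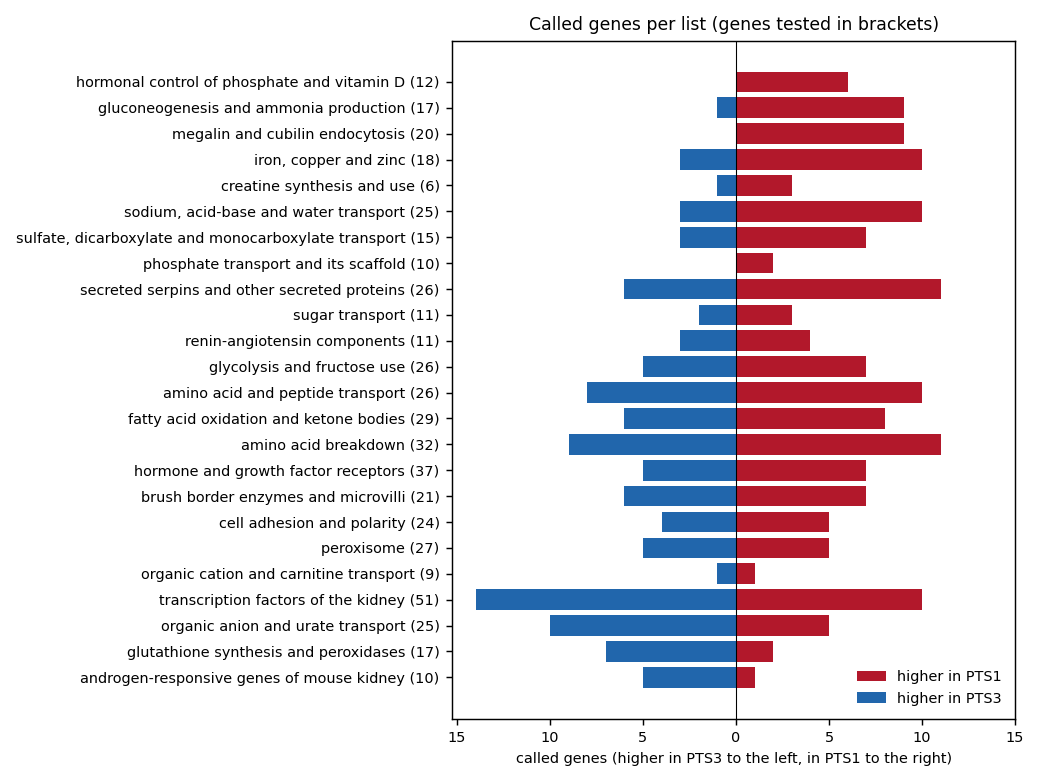
Called genes per list, with those higher in PTS1 to the right and those higher in PTS3 to the left of 0 on the x axis, and the number of genes tested in brackets. Lists at the top, such as hormonal control of phosphate and vitamin D (6 and 0 of 12), lean to PTS1, and those at the bottom, such as glutathione synthesis and peroxidases (2 and 7 of 17), to PTS3.

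Enzymes of drug and steroid conversion differed by member within each family, and close copies make single values uncertain. Of 63 cytochrome P450 genes, 14 were higher in PTS1 and 8 in PTS3 (median 0.14), and 12 and 12 after quantile normalization, with a median of -0.06. Cyp2d26 was the most abundant called in PTS1, at 721, 661 and 845 against 6.19, 1.09 and 0.875 TPM (8.05, SE 0.45, adjusted p = 2.26e-19, and 8.73 without PTS3 mouse 1). Cyp2e1, which handles ethanol and solvents, was at 85.1, 61.5 and 20.3 TPM in PTS1 and at 0.95, 0 and 0 TPM in PTS3 (5.31), but peaked in PTS2 at 989 TPM. Cyp7b1 was at 1257, 816 and 1132 TPM in PTS3 and at 0.44, 0.17 and 0.22 TPM in PTS1. The fatty acid hydroxylases Cyp4a10 (419 ± 47.8 against 26.5 ± 4.83 TPM, -3.94) and Cyp4a31 (-2.04) were higher in PTS3. The closely related Cyp2a4 and Cyp2a5 went apart, by -8.40 and 5.09.

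Of 17 UDP-glucuronosyltransferases, 9 were higher in PTS1 and 2 in PTS3 (median 1.64). The former include Ugt1a1 (2.48), Ugt1a2 (4.24), Ugt1a6a (2.10), Ugt1a7c (2.89) and Ugt1a10 (3.12). These are of the same Ugt1a group, so the count is not one of unrelated genes. Ugt2b38 was at 1497, 1265 and 672 TPM in PTS1 and at 2.52, 1.72 and 1.3 TPM in PTS3 (8.70, SE 0.54, adjusted p = 1.21e-17), and Ugt3a1 was higher in PTS3 (677 ± 157 against 57.4 ± 33.7 TPM, -3.65). Of 26 glutathione S-transferases, 9 were higher in PTS1 and 5 in PTS3 (median 0.50), the pseudogene Gstm2-ps1 (-3.41) among the latter. Gsta2 averaged 1036 ± 184 against 8.35 ± 2.07 TPM (6.83). Gstm1 was at 5506, 5737 and 6138 TPM in PTS3 and at 231, 242 and 219 TPM in PTS1 (-4.65, SE 0.23, adjusted p = 5.04e-21), and exceeded every other member there.

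Of 10 genes known to answer to androgen in mouse kidney, 5 were higher in PTS3 and 1, Odc1, in PTS1 (median -0.62, and 0.01 where the most abundant genes, Kap among them, were left out). Besides Kap and Cyp7b1, the beta-glucuronidase Gusb (68.5 ± 11 against 26.4 ± 2.9 TPM, -1.30) and Slco1a1 were higher in PTS3. Odc1, which starts polyamine synthesis, averaged 506 ± 44.6 against 221 ± 45.5 TPM (1.23), and Akr1c21 was at 1653 ± 405 and 1569.8 ± 75.9 TPM (0.05, adjusted p = 1).

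Secreted proteins were 11 of 26 higher in PTS1 and 6 in PTS3 (median 0.55), and 5 of those 6 were Serpina1 genes. Spp1, osteopontin, was at 2492, 2060.2 and 3174 TPM in PTS1 and at 9.29, 6.23 and 20 TPM in PTS3 (8.07, SE 0.56, adjusted p = 5.23e-16). Apoe averaged 1799 ± 539 against 46.5 ± 3.87 TPM (5.21), and the vitamin D binding protein Gc 279 ± 86.8 against 0.573 ± 0.487 TPM (7.52). Ttr, transthyretin, was at 287, 119 and 148 against 0, 0.775 and 1.39 TPM (6.72, SE 0.44, adjusted p = 4.28e-17). Agt, angiotensinogen, was the reverse, at 229.9, 178 and 243 TPM in PTS3 and at 12, 12.5 and 11.3 TPM in PTS1 (-4.06, SE 0.35, adjusted p = 3.71e-13). Its receptor gene Agtr1a was higher in PTS1 (51.5 ± 3 against 7.89 ± 1.64 TPM, 2.61). The 11 renin-angiotensin genes thus held 4 higher in PTS1 and 3 in PTS3 (median 0.00).

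Among 51 transcription factors of the kidney, 10 were higher in PTS1 and 14 in PTS3, with a median of 0.17 (-0.06 after quantile normalization). Ppargc1a, a coactivator of mitochondrial genes, was at 52, 41.3 and 57.7 TPM in PTS1 and at 2.96, 1.16 and 0.96 TPM in PTS3 (4.32, SE 0.22, adjusted p = 6.98e-21). Maf (16.7 ± 1.87 against 1.07 ± 0.261 TPM, 3.13) and Osr2 (81 ± 21.8 against 10.8 ± 3.25 TPM, 2.87) stood with it. Irx2 was at 22.5, 27 and 24.3 TPM in PTS3 and at 0.4, 0.49 and 0.48 TPM in PTS1 (-4.11, SE 0.23, adjusted p = 5.57e-19). Cebpb (123 ± 19.1 against 12.4 ± 2.07 TPM, -3.22), Irx1 (-3.0) and Pparg (-2.99) were also higher in PTS3. Mlxipl, which answers to glucose, was at 258 ± 58 against 38.6 ± 2.88 TPM (-2.69). Hnf4a, which proximal cells need to mature, was at 78 ± 14.3 and 113 ± 14.4 TPM and was not called (-0.55, adjusted p = 0.303).

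Hox genes, which mark position along the body axis, were 5 of 35 higher in PTS3 and 1 in PTS1 (median 0.06). Hoxb6 was at 25.3, 19.5 and 18.4 TPM in PTS3 and at 2.46, 1.58 and 2.01 TPM in PTS1 (-2.87, SE 0.13, adjusted p = 6.08e-23). Hoxb9 (18.9 ± 5.74 against 2.29 ± 1.09 TPM, -2.57) and Hoxb2 (22.1 ± 2.71 against 4.12 ± 0.537 TPM, -2.17) did likewise. Hoxa7 and Hoxb7 lay near the limit, at -1.04 and -1.16, and Hoxa7 was not called without PTS1 mouse 2 (-0.98), PTS3 mouse 1 (-0.96) or the PTS1 piece that stood apart (-0.99), nor after quantile normalization (-0.91).

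Of 37 hormone and growth factor receptors, 7 were higher in PTS1 and 5 in PTS3 (median 0.16, and -0.05 after quantile normalization). Adra1a, an alpha-adrenergic receptor, was at 20.4, 14.3 and 18.3 TPM in PTS1 and at 0, 0.025 and 0 TPM in PTS3 (4.19, SE 0.37, adjusted p = 9.09e-13). Insr, the insulin receptor, averaged 33.9 ± 1.54 against 6.38 ± 1.04 TPM (2.33). Ghr, the growth hormone receptor and the most abundant of the list, was at 1963, 1895 and 1933 TPM in PTS3 and at 201, 189 and 198 TPM in PTS1 (-3.29, SE 0.48, adjusted p = 4.75e-07). Gcgr, the glucagon receptor, was at 7.72, 8.99 and 6.19 TPM in PTS3 and at most 0.05 TPM in PTS1 (-2.99, SE 0.25, adjusted p = 2.95e-13).

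Metal handling genes leaned to PTS1, 10 of 18 against 3 (median 1.41). Mt1, a metallothionein, was at 208, 214 and 397 TPM in PTS1 and at 1.02, 0.7 and 0 TPM in PTS3 (7.55, SE 0.56, adjusted p = 4.34e-15). Slc40a1, the iron exporter ferroportin, averaged 46.3 ± 9.14 TPM and was listed at 0 in PTS3 (5.54). The ferritin chains parted, since Ftl1 was higher in PTS1 (2.05) and Fth1 was at 13864 ± 722 and 14289 ± 1219 TPM (-0.04, adjusted p = 0.908). The zinc and manganese importers Slc39a14 (185 ± 30.2 against 12 ± 0.797 TPM, -3.82) and Slc39a8 (62.1 ± 6.88 against 2.96 ± 1.22 TPM, -4.04) were higher in PTS3.

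Of 82 respiratory chain genes 9 were higher in PTS1 and 0 in PTS3 (median 0.44), and of 24 vacuolar proton pump genes 6 and 0 (median 0.71). The 6 pump genes include the pseudogene Atp6v0c-ps2 (1.42) and Atp6v1g3 (1.09), a gene of low level that is also in the intercalated cell list. After quantile normalization 6 and 1 of the chain genes were called. The largest differences were those of subunit forms known from heart and muscle, Cox7a1 at 243, 249 and 302 against 4.56, 11.7 and 4.71 TPM (5.43, SE 0.37, adjusted p = 3.31e-16). Cox6a2 was at 24.5, 44.4 and 27.4 TPM in PTS1 and listed at 0 in PTS3 (5.0, SE 0.13, adjusted p = 7.56e-31). Cytosolic ribosomal protein genes, 2 of 86 called in each direction with a median of 0.30, were mostly not called.

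PTS2 stood nearer to PTS3 than to PTS1. On a scale where 0 is the level of PTS3 and 1 that of PTS1, the 1057 genes of at least 10 TPM that were higher in PTS1 had a median of 0.43 in PTS2, and 602 of them were closer to PTS3. The 935 that were higher in PTS3 had a median of 0.07, with 830 closer to PTS3 and 386 beyond it, that is, highest in PTS2 among the 3 segments. Of the 1057, 113 were higher in PTS2 than in PTS1. These genes were chosen by their difference between the ends, which share 1 scale with PTS2, so the positions are a description with no test. Over all 15 groups, 312 of the 1057 were highest in PTS1, 33 in PTS2, 168 in the glomerulus and the others in further segments. Of the 935, 272 were highest in PTS3 and 235 in PTS2.

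**Figure D5:**
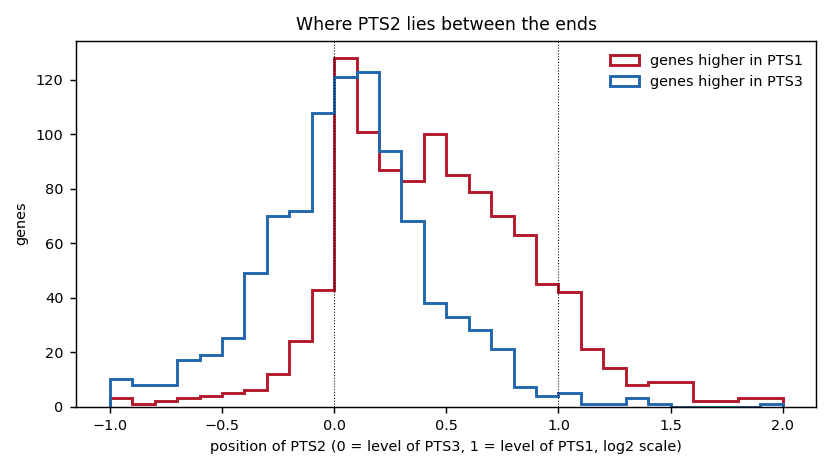
Number of genes (y axis) by the position of PTS2 between the ends on the log2 scale (x axis, 0 for PTS3 and 1 for PTS1, values past the axis placed in the end bins), for called genes with a mean of at least 10 TPM. Genes higher in PTS3 (blue) gather around 0, with a median of 0.07, while those higher in PTS1 (red) are spread more widely, with a median of 0.43 and 113 of 1057 past 1 and 104 below 0.

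Markers of other cell types were summed in each piece. The 10 podocyte genes summed to 12.7 to 16.7 TPM in PTS1 pieces and 2.38 to 10.1 TPM in PTS3 pieces, with the slit diaphragm gene Nphs1 under 0.1 TPM in PTS1 and listed at 0 in PTS3. Clic5 was the 1 podocyte gene called (1.24), and not after quantile normalization (0.97). The 12 endothelial genes summed to 46.9 to 148 and 22.4 to 266 TPM, and 0 were called by limma, with 3 at an unadjusted p under 0.05 and 2 called after quantile normalization. Plvap was at 24.5 ± 11.5 and 72.5 ± 26.7 TPM. The 12 leukocyte genes summed to 50.5 to 139.9 and 51.3 to 231 TPM, and 1 was called, Csf1r, at 0.66, 1.27 and 0.33 TPM in PTS1 and 42.4, 52.2 and 35.4 TPM in PTS3 (-4.70, SE 0.50, adjusted p = 2.63e-10). The defining leukocyte gene Ptprc averaged 1.44 and 0 TPM. Stromal, erythroid, thin limb, thick limb and distal convoluted lists each summed to under 10 TPM in every piece, and of 7 intercalated cell genes 2 at low level were called in PTS1, Slc26a4 (1.37) and Atp6v1g3 (1.09, but 0.90 and 0.94 without PTS1 mouse 2 or 3). Their part in the differences between the ends was not tested.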

How the data were processed

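RNA was sequenced from hand-dissected nephron segments, and the authors deposited TPM per gene for 54532 genes in 93 samples. The submitters' processing notes name STAR 2.5.4a and RSEM 1.3.0, while the genome build and annotation are not given in the sources used here. TPM share 1 total, so a very abundant transcript lowers all others, and close gene copies can exchange reads. The 3 single-cell samples of the series were not analysed here.

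Each mouse's value was the mean of log2(TPM + 1) over its pieces, with a pseudocount of 1. Genes with at least 1 TPM in 3 of the 53 combinations of segment and mouse number, each treated as 1 mouse, were kept (33793). limma 3.58.1 in R 4.3.3 was fitted over all 15 groups, so that they shared 1 estimate of spread (38 residual degrees of freedom, trended), and p-values were two-sided and adjusted by Benjamini-Hochberg over all genes tested. Tables were made with pandas 2.3.3 and numpy 2.4.6 in Python 3.11.15, plots with matplotlib 3.10.9, and the fit was tested on simulated data. The authors' mean columns were not used, since that of PTS1 differed from the mean of its 5 columns by over 0.05 TPM in 18093 genes.

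Genes named are the 15 with the largest log2 difference and the 5 with the largest TPM difference in each direction, the 3 label markers, and list members with the highest level or difference in their list. Some of these genes are not reported here. Some further list members were named after their values were seen. The comparison, its members and its lists were chosen with earlier results of these data known. Promoters came from the RefSeq table for GRCm38.p6 and were matched by symbol, for 813 of the 1057 genes higher in PTS1 and 695 of the 935 higher in PTS3. Alternatives covered the pseudocount, the filter, rescaling, the handling of pieces, the groups fitted, a block on mouse number and each mouse left out. Mouse numbers were not taken to pair the samples, as given with the limits.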

Additional observations from a re-analysis of the deposited data

Results flagged for a closer look

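Among the 11 pieces, 69 sets of values were tested for a piece apart from the others of its segment, and 16 stood out where chance gives about 1 in 20. Of these, 9 were the second piece (b) of PTS1 mouse 1, in genes that are far higher in PTS3. It held Kap at 1479 TPM, Acsm3 at 41.9 TPM, Cyp2a4 at 21.3 TPM, Slc7a13 at 27.1 TPM and Slc22a7 at 12.4 TPM. The same piece held Akr1c14 at 6.28 TPM, Mep1b at 6.18 TPM, Slc22a19 at 2.45 TPM and Cyp7b1 at 0.67 TPM, each the highest of the 5 PTS1 pieces. The cause was not tested.

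The other 7 were in 7 different pieces. In PTS3, piece a of mouse 1 was the highest in Acss1 (1.1 TPM) and piece a of mouse 3 in Gatm (0.03 TPM), both genes near 0 there. The lowest values of a segment were Ugt2b38 at 672 TPM in the piece of PTS1 mouse 3 and Slc34a1 at 8459.8 TPM in piece b of PTS1 mouse 2. In PTS3 they were Kap at 52415 TPM in piece b of mouse 1, Serpina1f at 1001 TPM in piece a of mouse 2, and the number of genes at 1 TPM or more, 11291, in piece b of mouse 3.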

How the results depend on the processing

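Of the 352 called genes of the lists and named sets, 0 reversed under any alternative in which they were tested, which was 341 genes with the filter at 5 TPM, 350 with the filter on the 6 mice, 339 with the most abundant genes left out and all 352 in the others. The count of 3417 calls (2075 higher in PTS1, 1342 in PTS3) moved most with the pseudocount, to 8631 (7105 and 1526) at 0.1 and 1813 (948 and 865) at 5, where 10 and 69 of the 352 lost their call. With no fold limit 5857 passed (3519 and 2338). Quantile normalization gave 3923 (1906 and 2017), of which 2833 were among the 3417, and median ratio rescaling 4646 (3044 and 1602). The balance of the directions thus depends on the scaling and on the pseudocount. Leaving out each mouse in turn gave 3200 to 3375 calls, 1872 to 2086 higher in PTS1 and 1278 to 1351 in PTS3. Without piece b of PTS1 mouse 1, a choice made after seeing the data, 3512 were called, and of the 352 genes 3 lost their call and 6 moved by over 1.5 times. Whether mice that share a number across segments are the same animals is not stated. Deviations of same-numbered mice correlated at 0.0449, 0.0892 and 0.0136, and 2 of 3 matched their own number best. Fitted on PTS1 and PTS3 mice alone, a replicate block gave 3852 calls against 3777 without it. The other settings gave 3303 to 3923. With 3 male mice a segment and unknown depth, small differences and low genes are the least certain.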

Other observations

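Of 12 housekeeping genes, often used as a reference level, 5 were higher in PTS1, 1 in PTS3 and 6 were not called, with a median of 0.57, and 3 and 1 after quantile normalization. Actb, a cytoskeletal actin, was at 1612, 1814 and 1636 TPM in PTS1 and at 710.2, 565 and 531 TPM in PTS3 (1.5, SE 0.29, limma adjusted p = 6.07e-05). Gapdh differed by 1.28, and by 0.97 after quantile normalization, where it was not called. Hprt (-0.19), Tbp (-0.05) and Ywhaz (0.10) were not called.

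Genes known from injured tubules were present in these untreated mice. Clu, clusterin, was at 57.1, 40 and 78.3 TPM in PTS3 and at 0.455, 0.285 and 0.73 TPM in PTS1 (-5.25, SE 0.40, adjusted p = 7.47e-15). Spp1 was higher in PTS1 by 8.07. Among 14 injury and repair genes, 3 were higher in PTS1 and 2 in PTS3 (median 0.19).

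Epcam, an adhesion protein of later tubule segments, was at 30.2, 25 and 37 TPM in PTS3 and at 0.34, 0.31 and 0.36 TPM in PTS1 (-4.55, SE 0.18). Cdh1, the E-cadherin gene, differed by -2.12, while the kidney cadherin Cdh16 was at 1222, 938 and 1239 TPM in PTS1 and 297, 212 and 288 TPM in PTS3 (2.09).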
